A study of Mus musculus with 8 samples.

Results

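Connexins and pannexins form channels in the plasma membrane. 6 connexin subunits assemble into a hemichannel, and hemichannels of neighbouring cells dock into gap junctions that pass ions and small metabolites between them. Pannexins are related in topology rather than sequence and mostly work as single-membrane channels that release ATP. Keratinocytes carry several beta connexins together with the alpha connexin Gja1, and human mutations in GJB2 and GJB6 cause skin disease. The genes described here are 7 named channel genes, Gjb2, Gjb5, Gjb6, Gja1, Gja4, Panx1 and Panx3, out of 41388 gene identifiers counted. They were chosen by name, with earlier results of these data known, and all 7 passed the filter on low counts.

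The samples were ear skin, labelled as whole ear, of wild-type (WT) C57Bl/6 adults, 4 mice painted with MC903 and 4 mice painted with ethanol alone. MC903 is calcipotriol, a vitamin D analog, given at 1 nmol a day for 12 days to produce skin inflammation resembling atopic dermatitis. Reads were counted per gene, with 12310466 to 15575518 counts in the MC903 libraries and 14223908 to 16837221 in the vehicle libraries. Keratinocyte genes were abundant in every library, as in the suprabasal keratin Krt10 at 1946 ± 658 CPM in MC903 ears and 2350 ± 375 CPM in vehicle ears (CPM, counts scaled to library size with TMM factors; mean ± SD, n = 4 each). Cyp24a1, a direct vitamin D receptor target, was at 3385 to 4311 CPM in MC903 ears against 16.5 to 20.6 CPM in vehicle ears. Vehicle replicate 2 stood apart, since 7 salivary gland markers summed to 63099 CPM there and to 57.8 to 117 CPM in the other 7 libraries. Because ears were sequenced whole, fewer cells of a type and less RNA per cell cannot be told apart.

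MC903 ears differed from vehicle ears in 6 of the 7 genes by edgeR's quasi-likelihood test at an adjusted p under 0.05, whereas 41.5% of all genes tested passed. Gjb6, Gjb2, Panx1 and Gja1 rose and Gjb5 and Panx3 fell, against 21.3% of all genes tested called higher and 20.2% called lower. Gja4 did not pass. The median log2 fold change of the 7 was 1.25, beside -0.03 over all genes tested. In the same 6 genes no MC903 library overlapped any vehicle library, which held for 38.6% of all genes tested. Since the 7 were chosen with earlier results of these data known, these shares are a background and no test of the set. All 6 calls and their directions remained when vehicle replicate 2 was left out, with log2 fold changes of 5.96 for Gjb6, 4.44 for Gjb2, 1.63 for Panx1, 1.27 for Gja1, -0.72 for Gjb5 and -1.43 for Panx3.

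**Figure D1:**
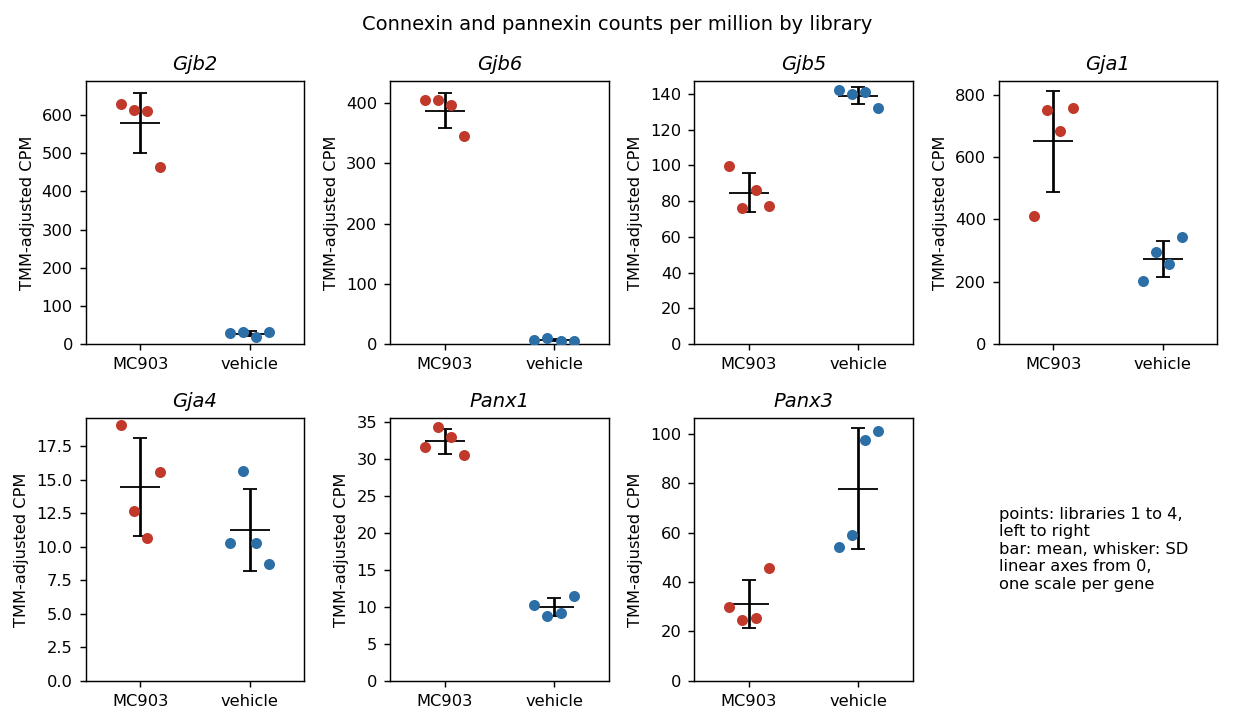
TMM-adjusted CPM of the 7 genes in each library, with MC903 libraries in red on the left and vehicle libraries in blue on the right of each panel, on linear axes that start at 0. Points are single libraries, the bar is the mean and the whisker the SD (n = 4 each). The groups are separate for every gene but Gja4, where MC903 libraries run from 10.7 to 19.1 CPM and vehicle libraries from 8.73 to 15.7 CPM.

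Gjb2 (ENSMUSG00000046352) and Gjb6 (ENSMUSG00000040055) encode the beta connexins Cx26 and Cx30, which can mix in one channel and are best known for hearing and for the skin. They are neighbours on mouse chromosome 14, Gjb2 at 57098600 to 57104702 and Gjb6 at 57123303 to 57133611 in mm10, both on the minus strand. The 18600 bases between them hold 1 other annotated gene, Gm4491, with 15 counts in all 8 libraries together. Their upstream sequences are shown because the pair moved together while the letters before their starts differ. Each is the 250 bases ahead of the RefSeq start (GRCm38.p6, minus strand), at chr14:57104703-57104952 for Gjb2 and chr14:57133612-57133861 for Gjb6. Capitals mark the GC-box letters GGGCGG and the nuclear receptor half-site letters AGGTCA, searched on both strands, and a match on the other strand appears in capitals as its reverse complement.
Gjb2: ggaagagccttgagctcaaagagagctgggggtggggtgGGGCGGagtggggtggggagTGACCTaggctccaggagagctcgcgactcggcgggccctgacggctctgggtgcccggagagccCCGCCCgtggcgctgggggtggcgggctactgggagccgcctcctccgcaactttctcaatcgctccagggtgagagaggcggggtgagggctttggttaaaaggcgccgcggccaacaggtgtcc
Gjb6: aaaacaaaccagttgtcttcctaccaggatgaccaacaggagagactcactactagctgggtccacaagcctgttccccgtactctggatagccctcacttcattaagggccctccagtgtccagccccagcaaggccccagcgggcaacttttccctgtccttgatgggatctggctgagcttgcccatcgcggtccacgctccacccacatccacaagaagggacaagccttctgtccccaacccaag
The Gjb2 stretch is 69.2% G and C and holds 2 GC-box matches and 1 half-site match, none overlapping. The Gjb6 stretch is 56.8% G and C and holds none of the 9 motifs searched, which were these 2, the letters TGANTCA, the TATA box TATAAA, the half-site variants GGTTCA and AGTTCA, the STAT letters TTCNNNGAA, the CCAAT box and the GGGTGTG letters bound by KLF factors. Among 32851 RefSeq promoters cut to the same length, 32.7% hold GGGCGG and 14% hold AGGTCA. Of the other members, Gjb5, which fell, also holds AGGTCA, and Gja4, which did not pass, also holds GGGCGG. A match is a run of letters and was not tested as a binding site.

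Gjb2 was at 630, 612, 610 and 463 CPM in MC903 ears, against 29.8, 31.6, 18.8 and 30.9 CPM in vehicle ears. MC903 replicate 4 was the lowest of its group, and the lowest MC903 library still lay far above the highest vehicle library. The log2 fold change was 4.38 ± 0.22 (SE; adjusted p = 2.11e-07 by edgeR's quasi-likelihood test), a 20.8-fold rise. Gjb6 was at 404, 404, 397 and 345 CPM in MC903 ears, against 6.88, 9.81, 6.05 and 5.61 CPM in vehicle ears. Again MC903 replicate 4 was the lowest of its group, and the groups did not overlap. The rise was 54.8-fold, a log2 fold change of 5.78 ± 0.21 (adjusted p = 3.5e-08). Only 0.335% of the genes tested had an estimated log2 fold change at least as high as that of Gjb6, and 0.714% one at least as high as that of Gjb2.

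The pair did not rise by the same amount. Per kilobase, Gjb6 stood to Gjb2 at a ratio of 0.68, 0.699, 0.69 and 0.79 in MC903 ears and 0.245, 0.329, 0.342 and 0.192 in vehicle ears. Every MC903 ratio was higher than every vehicle ratio. The mean log2 ratio was higher by 1.4 in MC903 ears (two-sided exact permutation test, p = 0.0286, the smallest that 4 against 4 libraries allow, and 0.0286 after Benjamini-Hochberg adjustment over 3 ratios). Any pairing of the separate Gjb6 and Gjb2 levels within each group would have kept the ratios apart. This p therefore adds nothing to the separate results of Gjb6 and Gjb2. None of the 50-base words in the annotated transcripts of either gene occurs in a transcript of another gene in GENCODE M21, so reads of this length from the 2 genes do not share an origin in that annotation.

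The keratinocyte lists were mixed beside this pair. All 7 stress keratinocyte markers, 4 keratins with S100a8, S100a9 and Sprr1b, were higher (median log2 fold change 5.01), with a summed level of 11535 to 13854 CPM in MC903 ears and 648 to 970 CPM in vehicle ears, and none was at 0. S100a8 also stands in the neutrophil list. Krt6b, a keratin of activated epidermis, was at 2778 ± 415 CPM in MC903 ears and 46.7 ± 27.6 CPM in vehicle ears. Of 7 basal keratinocyte markers 1 was higher and 2 were lower (sums of 9281 to 10962 CPM in MC903 ears and 5937 to 8282 CPM in vehicle ears), and of 6 suprabasal markers 2 were higher and none lower (sums of 3072 to 5740 CPM in MC903 ears and 3085 to 3960 CPM in vehicle ears). The 2 most abundant basal markers went opposite ways. Krt14 was higher, at 7066 ± 828 CPM in MC903 ears and 1934 ± 256 CPM in vehicle ears. Krt15 was lower, at 563 ± 216 CPM in MC903 ears and 3054 ± 911 CPM in vehicle ears (log2 fold change -2.44 ± 0.31, adjusted p = 0.000114). Of the 2 most abundant suprabasal markers, Krt1 was higher, at 1845 ± 361 CPM in MC903 ears and 202 ± 49.8 CPM in vehicle ears, and Krt10, given above, did not pass (-0.27 ± 0.27, adjusted p = 0.448). The part of these cells in the rise of Gjb2 and Gjb6 was not tested.

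Gjb5 (ENSMUSG00000042357) encodes Cx31.1, another beta connexin of stratified epithelium. It lies on chromosome 4 at 127354809 to 127358181 in mm10 on the minus strand. Gjb5 was at 99.4, 75.9, 86.0 and 77.0 CPM in MC903 ears, against 142, 140, 141 and 132 CPM in vehicle ears. The vehicle libraries were close to each other, and all 4 lay above every MC903 library. The log2 fold change was -0.71 ± 0.12 (adjusted p = 0.000803), which leaves 0.609 of the vehicle level.

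On chromosome 14 the lens connexin gene Gja3, which neighbours Gjb2, had 4 counts over the MC903 libraries and 11 over the vehicle libraries, so a difference was not detectable at this depth.

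Gja1 (ENSMUSG00000050953; chromosome 10, 56377300 to 56390419, plus strand) encodes Cx43, the most widely expressed connexin and the one of basal keratinocytes, fibroblasts and smooth muscle. Its 250 bases before the RefSeq start, chr10:56377050-56377299 on the plus strand of GRCm38.p6, hold 1 match to the AP-1 letters TGANTCA, shown in capitals. The match begins 19 bases ahead of the RefSeq start, which equalled no Gja1 transcript start in GENCODE M21.
Gja1: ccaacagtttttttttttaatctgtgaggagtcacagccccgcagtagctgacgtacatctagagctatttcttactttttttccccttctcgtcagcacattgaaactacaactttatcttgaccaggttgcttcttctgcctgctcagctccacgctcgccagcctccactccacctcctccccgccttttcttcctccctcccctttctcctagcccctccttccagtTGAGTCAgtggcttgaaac
TGANTCA, which reads the same on both strands, is present in 6.75% of the promoters of this length and in none of the other 5 members with a promoter entry. Gja1 was at 412, 750, 682 and 758 CPM in MC903 ears, against 204, 294, 256 and 342 CPM in vehicle ears. MC903 replicate 1 was the lowest of its group but still above every vehicle library. The log2 fold change was 1.25 ± 0.23 (adjusted p = 0.00138), or 2.37-fold. In the annotated Gja1 transcripts 12 of 10445 words of 50 bases, 0.115%, also occur in transcripts of other genes.

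Gja1 is also a gene of fibroblasts, of which no marker passed as higher. Of 7 fibroblast markers none was higher and 1 was lower, with sums of 6376 to 9365 CPM in MC903 ears and 9826 to 14043 CPM in vehicle ears, and none at 0. Of 8 smooth muscle and pericyte markers none was higher and 2 were lower (411 to 561 CPM in MC903 ears and 386 to 491 CPM in vehicle ears). The part of any one cell type in the level of Gja1 was not tested. Per kilobase, Gjb2 stood to Gja1 at 1.97, 1.05, 1.16 and 0.788 in MC903 ears and at 0.188, 0.139, 0.0948 and 0.117 in vehicle ears. The mean log2 ratio was higher by 3.17 in MC903 ears and the groups did not overlap (exact permutation p = 0.0286, adjusted p = 0.0286 over 3 ratios). Here too any pairing of the separate Gjb2 and Gja1 levels within each group would have kept the ratios apart. The p adds nothing to the separate results of Gjb2 and Gja1.

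The make-up of connexin transcripts in the ear was therefore different in the 2 groups, as a description without a test. Over the 20 connexin genes in the files, Gjb2 held 27.4% ± 3.8 of the summed counts per kilobase in MC903 ears and 3.09% ± 0.662 in vehicle ears (SD, n = 4 each). The share of Gjb6 was 19.4% ± 1.52 in MC903 ears and 0.834% ± 0.198 in vehicle ears. The share of Gja1, whose level rose, was 23.8% ± 5.85 in MC903 ears and 23.5% ± 4.13 in vehicle ears. Gjb5 held 5.6% ± 0.759 in MC903 ears and 21.6% ± 1.63 in vehicle ears. The sum itself, as TMM-adjusted CPM per kilobase of gene length (RPKM), was 872, 883, 875 and 884 in MC903 ears and 348, 395, 370 and 382 in vehicle ears. Within MC903 ears the sum thus ran over a narrower range than any of Gjb2, Gja1 and Gjb6.

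**Figure D2:**
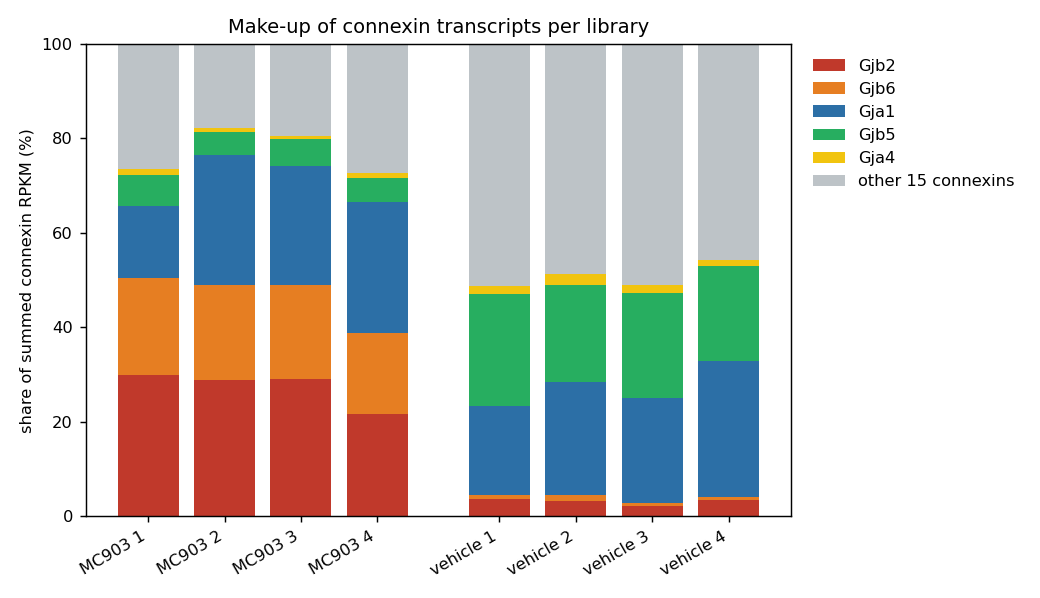
Share of 5 connexins, and of the other 15 together, in the summed connexin RPKM of a library, as stacked bars from 0 to 100%, with the 4 MC903 libraries on the left and the 4 vehicle libraries on the right. Gjb2 and Gjb6 together fill 38.9 to 50.4% of the MC903 bars and 2.83 to 4.43% of the vehicle bars.

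Per kilobase the 7 genes ranked differently in the 2 groups. In MC903 ears the order by mean RPKM was Gjb2 (241), Gja1 (209), Gjb6 (171), Gjb5 (49.2), Panx3 (11.8), Panx1 (10.8) and Gja4 (8.62). In that order the neighbours Gjb2 and Gja1, Gja1 and Gjb6, Panx3 and Panx1, and Panx1 and Gja4 overlapped in their libraries. In vehicle ears the order was Gja1 (88.2), Gjb5 (80.6), Panx3 (29.3), Gjb2 (11.5), Gja4 (6.68), Panx1 (3.33) and Gjb6 (3.12). There the overlapping neighbours were Gja1 and Gjb5, Gjb2 and Gja4, and Panx1 and Gjb6. Gjb6 was thus last in vehicle ears and above 4 of the other genes in MC903 ears.

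Gja4 (ENSMUSG00000050234; chromosome 4, 127311421 to 127314039, minus strand) encodes Cx37, a connexin of arterial endothelium. It was at 19.1, 12.7, 10.7 and 15.6 CPM in MC903 ears, against 10.3, 15.7, 10.3 and 8.73 CPM in vehicle ears. The groups overlapped, and vehicle replicate 2 was the highest vehicle library, above 3 of the 4 MC903 libraries. The log2 fold change of 0.37 ± 0.22 did not pass (adjusted p = 0.198, 95% interval -0.11 to 0.85). Without vehicle replicate 2 it was 0.56 (adjusted p = 0.0566, the lowest over the alternatives, which ran to 0.437). Of 10 endothelial markers 1 was higher and none lower, with sums of 207 to 287 CPM in MC903 ears and 179 to 243 CPM in vehicle ears. The 1 higher was Pecam1 (0.45 ± 0.17, adjusted p = 0.0488), a call that was lost under 11 of 16 alternatives, whose adjusted p ran from 0.03 to 0.162.

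Gja5, which encodes Cx40, the other main connexin of arterial endothelium, did rise. It was at 6.67, 5.82, 3.97 and 8.18 CPM in MC903 ears, against 1.65, 3.45, 2.17 and 1.06 CPM in vehicle ears, and the groups did not overlap. Its log2 fold change was 1.58 ± 0.33 (adjusted p = 0.00321). Gja5 was 1 of the 8 arterial markers listed, of which no other was higher and 1, Unc5b, was lower. Their sums were 223 to 305 CPM in MC903 ears and 246 to 343 CPM in vehicle ears.

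Panx1 (ENSMUSG00000031934; chromosome 9, 15005161 to 15045478, minus strand) is the widely expressed pannexin, whose channel releases ATP. It was at 31.6, 34.3, 33.0 and 30.5 CPM in MC903 ears, against 10.3, 8.81, 9.24 and 11.5 CPM in vehicle ears. The MC903 libraries were the least spread of any of the 7 genes in that group, with a coefficient of variation of 5.12%. The log2 fold change was 1.69 ± 0.13 (adjusted p = 3.43e-06), or 3.24-fold, and 4.23% of the genes tested had one at least as high. Most leukocyte markers moved the same way: all 7 macrophage markers were higher, with sums of 1739 to 2617 CPM in MC903 ears and 767 to 923 CPM in vehicle ears, none at 0. C1qb, a complement gene of macrophages, was at 475 ± 142 CPM in MC903 ears and 112 ± 22.3 CPM in vehicle ears. Of 5 neutrophil markers tested 4 were higher (251 to 886 CPM in MC903 ears and 23.6 to 58.7 CPM in vehicle ears for the 6 listed), and of 7 T cell markers 5 were higher (87.3 to 121 CPM in MC903 ears and 52.9 to 70.4 CPM in vehicle ears). S100a8, which is also in the stress keratinocyte list, made up most of the neutrophil sum in MC903 ears. All 7 stress keratinocyte markers, given above, were higher as well. The part of any of these cells in the rise of Panx1 was not tested.

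Panx3 (ENSMUSG00000011118; chromosome 9, 37659902 to 37669222, minus strand) is the pannexin of cartilage, bone and skin. It was at 29.9, 24.5, 25.5 and 45.5 CPM in MC903 ears, against 54.3, 59.0, 97.3 and 101 CPM in vehicle ears. The vehicle libraries fell into a lower pair and a higher pair, and all 4 lay above the MC903 libraries. The log2 fold change was -1.31 ± 0.25 (adjusted p = 0.00173), which leaves 0.402 of the vehicle level. Per kilobase, Panx3 stood to Panx1 at 1.07, 0.802, 0.872 and 1.68 in MC903 ears and at 5.91, 7.55, 11.9 and 9.84 in vehicle ears. The mean log2 ratio was lower by 3.01 in MC903 ears, with no overlap (difference -3.01, exact permutation p = 0.0286, adjusted p = 0.0286 over 3 ratios). Panx3 was lower and Panx1 higher in every MC903 library than in any vehicle library. The ratios therefore had to separate, and this p adds nothing to the separate results of these genes.

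The ear has a cartilage plate, and cartilage markers were lower beside Panx3. Of 11 tested, 10 were lower and none higher (median log2 fold change -1.26), with sums for the 12 listed of 223 to 268 CPM in MC903 ears and 579 to 773 CPM in vehicle ears, none at 0 in all libraries. Cnmd, chondromodulin, was at 65.0 ± 17.1 CPM in MC903 ears and 216 ± 58.1 CPM in vehicle ears. Acan, the aggrecan core protein, had a log2 fold change of -1.37 ± 0.14. Of 4 bone markers tested 1 was lower, Ibsp (bone sialoprotein), at 2.37 ± 0.735 CPM in MC903 ears and 14.2 ± 7.89 CPM in vehicle ears. The other 3 bone markers did not pass, and the median log2 fold change of the bone list was -0.09. Other lists held lower markers too. Of 8 hair follicle markers 5 were lower and 1 higher, and of 8 skeletal muscle markers 4 were lower and none higher. The part of cartilage or of any other tissue in the fall of Panx3 was not tested.

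Of the 16 other connexin and pannexin genes, 6 passed the filter on low counts. Of these 1, Gja5, was higher and 2 were lower, Gjc3 among them, beside 41.5% of all genes tested called in either direction. Gjc3, a connexin of myelinating glia, was at 0.808, 0.998, 1.19 and 0.81 CPM in MC903 ears, against 4.00, 4.06, 3.42 and 3.24 CPM in vehicle ears. It had the largest fall of the 13 channel genes tested (-1.94 ± 0.22, adjusted p = 5.95e-05). All 8 Schwann cell markers were lower, with sums of 541 to 631 CPM in MC903 ears and 1055 to 1425 CPM in vehicle ears, none at 0, among them S100b at -1.54 ± 0.14. The part of these cells was not tested. Gjc1, the connexin Cx45 of vessel and heart muscle, was at 7.78 ± 0.979 CPM in MC903 ears and 6.95 ± 0.968 CPM in vehicle ears and did not pass (0.16 ± 0.17, adjusted p = 0.462, 95% interval -0.20 to 0.52).

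Gjb1, which encodes Cx32 of liver, glands and Schwann cells, turned on a single library. It was at 9.97, 5.49, 6.28 and 7.54 CPM in MC903 ears, against 0.588, 18, 1.71 and 0.935 CPM in vehicle ears, the 18 CPM being in the library with salivary transcripts. With all libraries it did not pass (0.51 ± 0.82, adjusted p = 0.646, 95% interval -1.30 to 2.31). Without vehicle replicate 2 it was higher in MC903 ears by 2.74 (adjusted p = 0.000226), and its adjusted p over the alternatives ran from 0.000226 to 0.921. The other 10 genes had at most 8 counts in any library, and Gjd4 and Gje1 had none. Panx2, the remaining pannexin, had 3 counts over the MC903 libraries and 17 over the vehicle libraries, which gives a ratio of 0.197 (exact 95% bounds 0.037 and 0.681, for counting error only).

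**Figure D3:**
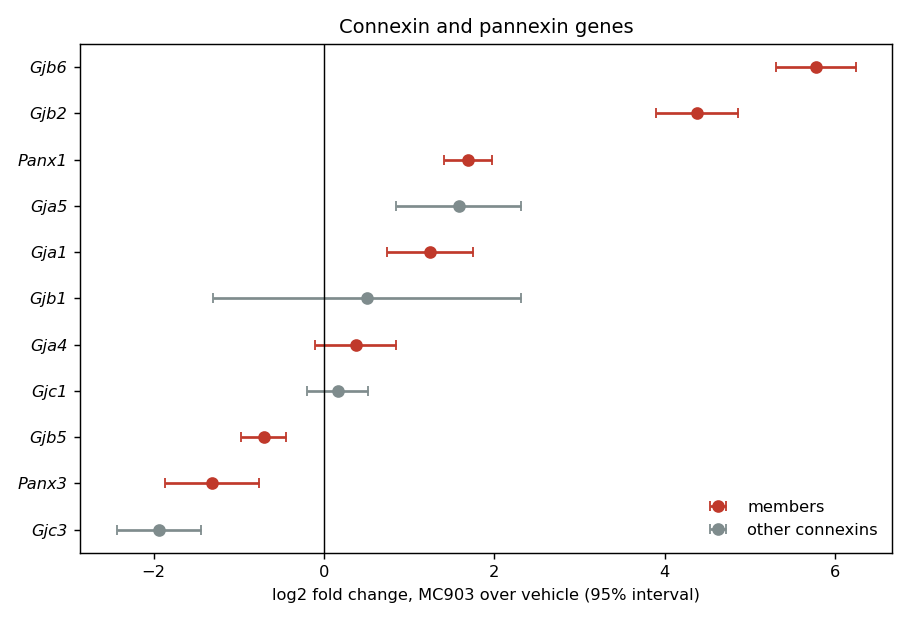
Log2 fold change, MC903 over vehicle, of 11 of the 13 connexin and pannexin genes that passed the filter on low counts, with 95% intervals from edgeR's quasi-likelihood fit. The 7 members are red and 4 others grey. Gjb6 and Gjb2 stand at 5.78 and 4.38, apart from the others shown, which lie between -1.94 and 1.69.

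ATP that leaves through pannexin channels acts on P2X ion channels and P2Y receptors, and surface enzymes break it down to adenosine. Of 30 genes of this signal tested, 13 were higher and 6 lower (median log2 fold change 0.45), against 41.5% of all genes called. P2ry14, a receptor for UDP-glucose, was at 15.9 ± 0.155 CPM in MC903 ears and 6.48 ± 0.713 CPM in vehicle ears (1.29 ± 0.13, adjusted p = 2.42e-05). P2rx1, a P2X channel of platelets, leukocytes and smooth muscle, was at 4.99 ± 1.09 CPM in MC903 ears and 1.65 ± 0.193 CPM in vehicle ears (1.58 ± 0.22). Entpd1, the ATP-degrading enzyme CD39, was at 67.5 ± 9.27 CPM in MC903 ears and 36.1 ± 3.54 CPM in vehicle ears (0.90 ± 0.13). Entpd2, a related enzyme that favours ATP and is found on glia, went the other way, at 21.4 ± 3.23 CPM in MC903 ears and 50.2 ± 2.6 CPM in vehicle ears (-1.23 ± 0.13). P2rx2 (-2.15 ± 0.20) and the adenosine receptor Adora1 (-2.31 ± 0.35) also fell. P2rx7, the ATP channel coupled to Panx1 in macrophages, was at 27.9 ± 7.19 CPM in MC903 ears and 21.3 ± 1.19 CPM in vehicle ears and did not pass (0.39 ± 0.17, adjusted p = 0.0941). P2rx7, Entpd3 and the artery marker Unc5b were singled out after their values were seen.

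**Figure D4:**
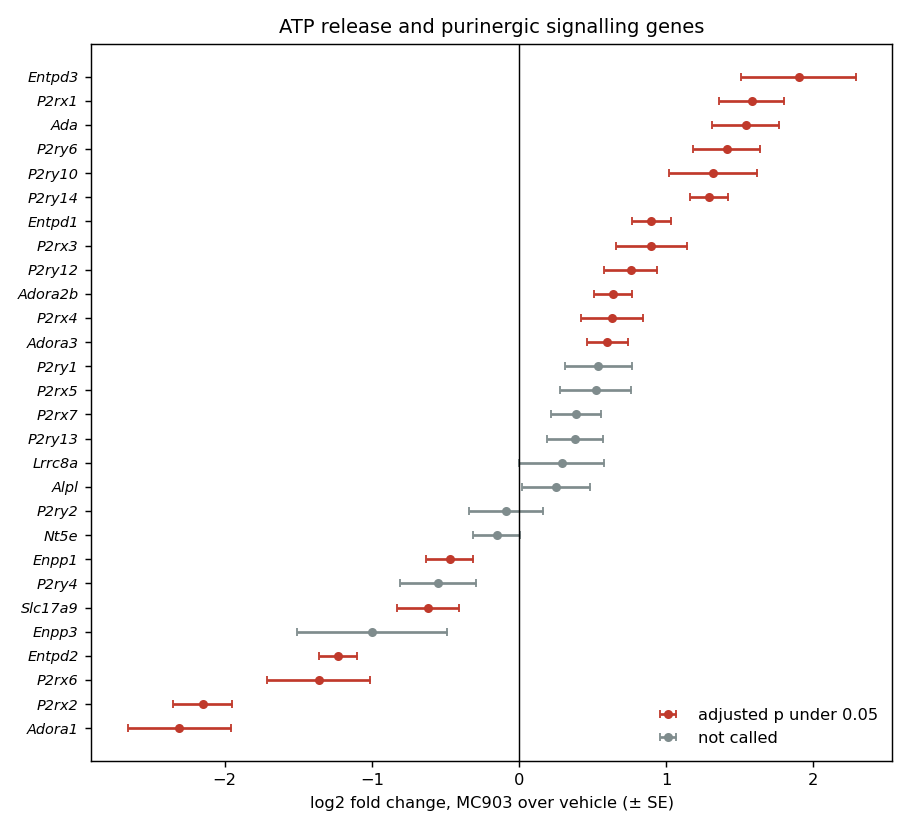
Log2 fold change, MC903 over vehicle, with its SE for 28 of the 30 genes of ATP release and purinergic signalling that were tested, red where the adjusted p was under 0.05 and grey otherwise. Changes range from Entpd3 at 1.90 to Adora1 at -2.31, and of the genes shown 12 were called higher and 6 lower.

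Genes of proteins that bind, modify or turn over connexins formed a list of 31, all tested. Among them 5 were higher and 5 lower (median log2 fold change 0.16), beside the 41.5% of all genes called. Ywhaq, a 14-3-3 protein that helps Gja1 channels form, was at 86.6 ± 5.16 CPM in MC903 ears and 45.3 ± 2.91 CPM in vehicle ears (0.93 ± 0.11, adjusted p = 5.65e-05). Erp29, a chaperone of Gja1 subunits in the endoplasmic reticulum, was higher by 0.59 ± 0.12 and Src, a kinase that phosphorylates Gja1, by 0.77 ± 0.18. Cav1, the caveolar scaffold, was at 308 ± 92.3 CPM in MC903 ears and 592 ± 78.3 CPM in vehicle ears (-0.94 ± 0.22, adjusted p = 0.00504). Nedd4, a ubiquitin ligase of Gja1, had a log2 fold change of -0.75 ± 0.18, and the junction scaffold Tjp3 one of -0.90 ± 0.22. With upper quartile factors 3 were higher and 6 lower. The number higher was 3 without MC903 replicate 2 or 3 or without vehicle replicate 1 or 2, and the number lower was 3 without MC903 replicate 3.

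The genes nearest to each member were found by the root mean square difference of log2 CPM over the 8 libraries, after centring each gene, among 13114 genes. Nearest to Gjb6 were Lce3f, a late cornified envelope gene (0.20 log2 units), and Stfa1, a stefin (0.22). Nearest to Gjb2 were Teddm3 (0.25) and the chemokine gene Ccl8 (0.30). Gjb5 lay closest to the epithelial membrane protein gene Emp2 (0.065) and Slc25a38 (0.066), and Panx1 to the small GTPase gene Arl4d (0.077) and the semaphorin gene Sema4d (0.086). Gja1 lay closest to Gimap1 and C1galt1 (0.14 each), Panx3 to Scd1 (0.13) and Elovl5 (0.14), both of fatty acid synthesis, and Gja4 to Dpp7 (0.10) and Chaf1a (0.12). The distances describe these 8 libraries, which fall into 2 groups, and no p is attached.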

How the data were processed

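RNA of 8 whole ears (4 MC903, 4 vehicle) was sequenced as single 50-base reads after removal of ribosomal RNA, per the labels' protocols. The authors deposited whole-number counts per Ensembl gene beside CPM and RPKM. The mm10 build and the tools featureCounts 1.4.5, from Subread, and STAR 2.0.4b are named, per the submitters' processing notes; the sources used here give no strand setting, annotation release or handling of multiply mapped reads. Deposited CPM and RPKM matched the counts to within 2.33e-10 and 1.75e-10 and were not used further. RPKM in the results was computed from the deposited counts and gene lengths with TMM factors.

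Of 41388 identifiers, 40254 were named from a symbol table. Nov was matched as Ccn3, and the marker Flg was not matched and not used here. No gene overlapped a member. Genes were filtered with filterByExpr, normalized with TMM and tested over all genes with edgeR 4.0.16 (R 4.3.3; quasi-likelihood test on group alone, adjusted p under 0.05 by Benjamini-Hochberg). The SE is the log2 fold change divided by the root of F. Ratios used an exact permutation test (scipy 1.17.1). The fit was tested on simulated data. A count of 3 equals 0.178 to 0.244 CPM. Intervals cover counting error only where they rest on counts, since PCR reads are not independent molecules.

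Members and lists were chosen with earlier results of these data known. The text names the 7 members, the other family genes tested, the 3 called partner and purinergic genes with the smallest p in each direction, abundant markers, the 2 nearest genes of each member and Cyp24a1. The markers given with values are not always the most abundant of their list, and some more abundant ones changed less. Alternatives were upper quartile, RLE and no factors, limma-voom (limma 3.58.1), DESeq2 1.42.0, a stricter filter or none, a replicate block and leaving out each library. Promoters came from RefSeq (GRCm38.p6), with an entry for 6 of the 7 members, and transcripts from GENCODE M21. The RefSeq starts of Gja1 and Gjb5 equalled no transcript start of the same gene in GENCODE M21. Values of some genes of the family and lists are not reported here, though counts and sums over a list hold them.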

Additional observations from a re-analysis of the deposited data

Results flagged for a closer look

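A value far from the other 3 of its group was looked for in 32 groups of 4, where chance alone gives about 1 in 20, and 4 were found. In MC903 replicate 4, Gjb2 was at 463 CPM and Gjb6 at 345 CPM, each the lowest of its group and set apart from the other MC903 libraries, which lay at 610 to 630 CPM for Gjb2 and at 397 to 404 CPM for Gjb6. In vehicle replicate 3, Gjb2 was at 18.8 CPM, set below the other vehicle libraries at 29.8 to 31.6 CPM. In vehicle replicate 2, Gjb1 was at 18 CPM against at most 1.71 CPM in the other vehicle libraries, and that library held 63099 CPM of salivary markers.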

How the results depend on the processing

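All 7 members kept their direction and their side of the threshold under all 16 alternatives, with log2 fold changes of 5.68 to 5.96 for Gjb6, 4.23 to 4.48 for Gjb2, 1.60 to 1.77 for Panx1, 1.13 to 1.42 for Gja1, 0.21 to 0.56 for Gja4, -0.80 to -0.66 for Gjb5 and -1.54 to -1.17 for Panx3. Of the 6 other family genes tested, Gjb1 was called with limma-voom (1.91, adjusted p = 0.0481) and without vehicle replicate 2. The partner list had 10 genes called, 6 with the replicate block, and 6 to 11 when single libraries were left out. The purinergic list had 19 called and 15 to 18 without single libraries. Deviations of the same-numbered libraries of the groups correlated at 0.117, -0.24, -0.29 and -0.164. Those of differently numbered libraries ran from -0.343 to 0.457, so these values cannot settle whether the numbers mark pairs. With the block 6 of the 7 members were called, as without it, and Gja4 again did not pass (adjusted p = 0.223). With 1 library left out, 4 against 3 cannot give a permutation p below 0.0571, and the differences of the log2 ratios were 1.24 to 1.52 (Gjb6 to Gjb2), 2.92 to 3.36 (Gjb2 to Gja1) and -3.23 to -2.84 (Panx3 to Panx1). Shares by counts rather than per kilobase put Gja1 at 31.8% in MC903 ears and 35.8% in vehicle ears, because its transcript is longer than those of the beta connexins. Depth limits the 10 family genes with at most 8 counts in any library.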
